A study of Mus musculus with 4 samples.

Results

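Schlafen family genes were examined in whole J558 tumours from mice treated with vehicle or with TAK-931, an oral inhibitor of the replication kinase CDC7. The members were the 7 genes Slfn1, Slfn2, Slfn3, Slfn4, Slfn5, Slfn8 and Slfn9, chosen by name from the 24421 genes of the count tables. All 7 were present, and all 7 passed the filter on low counts with at least 24 counts in every library. Of these, 6 had higher levels in both TAK-931-treated tumours than in both vehicle-treated tumours, as did 30.0% of all genes tested, whereas Slfn3 did not.

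Bulk RNA-seq was performed on 4 tumours, 2 from vehicle-treated mice (Vehicle-1, Vehicle-2) and 2 from TAK-931-treated mice (TAK-931-1, TAK-931-2). J558 is a BALB/c plasmacytoma line, and the cells had been injected under the skin of the flank of female BALB/c mice. For such mice the paper's reporting summary states an age of 4 weeks without naming the experiment. Vehicle was given by mouth, TAK-931 was given orally at 60 mg/kg once daily, and both groups were sampled on day 6. The paper names 0.5% methylcellulose as the vehicle of its efficacy studies and does not name the vehicle of these tumours. J558 is 1 tumour line, and each library held tumour cells together with leukocytes and stroma of an immunocompetent host. The labels do not say that same-numbered animals were paired. Library totals ranged from 16487902 to 19589339 counts, and Vehicle-1 and Vehicle-2 were closer to each other than TAK-931-1 and TAK-931-2 were, with a Pearson correlation of log2 levels across genes of 0.977 against 0.865. TAK-931-1 stood apart, since TAK-931-2 correlated at 0.95 and 0.939 with Vehicle-1 and Vehicle-2, and TAK-931-1 at 0.806 and 0.791. The cell type is labelled B lymphocyte, and the 10 J558 and plasma cell markers together had 10011, 10592, 5002 and 14029 CPM in Vehicle-1, Vehicle-2, TAK-931-1 and TAK-931-2. The 7 B cell markers together had 202.1, 244.9, 132.5 and 238.6 CPM, most of it from Cd79b, while Pax5, the transcription factor of mature B cells, had 0 counts in every library. CPM are counts scaled to a common library total with TMM factors. The skeletal muscle markers together had 101, 105, 775 and 18.3 CPM in the same order, highest in TAK-931-1 and lowest in TAK-931-2.

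Schlafen proteins share a core fold found in RNA-cutting enzymes and are grouped by length. Slfn1 and Slfn2 encode short proteins, Slfn3 and Slfn4 intermediate ones, and Slfn5, Slfn8 and Slfn9 long ones that carry a helicase-like domain. Many family members are induced by interferons in leukocytes, Slfn2 is needed for T cells and monocytes to remain quiescent, and the related human protein SLFN11 blocks stressed replication forks. All 7 genes lie in 1 cluster on chromosome 11 (mm10), from the start of Slfn5 at 82952102 to the end of Slfn3 at 83215154. Slfn8 (83002158 to 83020810) and Slfn9 (82980303 to 82991830) are on the minus strand. Slfn5 (82952102 to 82964850), Slfn2 (83065112 to 83070678), Slfn1 (83116845 to 83122659), Slfn4 (83175186 to 83190216) and Slfn3 (83191330 to 83215154) are on the plus strand, with Slfn4 and Slfn3 next to each other.

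The sequences directly upstream of the start sites are shown for Slfn3 and Slfn4, neighbours of which Slfn4 alone had higher levels in the TAK-931-treated libraries, and for Slfn5, Slfn8 and Slfn9, which carry the core of the interferon-stimulated response element (ISRE). Each run holds the 170 bases before the RefSeq start site (GRCm38.p6), 5′ to 3′ on the gene's own strand. Capitals mark a run shared by Slfn1, Slfn2, Slfn3 and Slfn4 in the first pair and the ISRE core in the others.

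Slfn3 (chr11:83191160-83191329, plus strand): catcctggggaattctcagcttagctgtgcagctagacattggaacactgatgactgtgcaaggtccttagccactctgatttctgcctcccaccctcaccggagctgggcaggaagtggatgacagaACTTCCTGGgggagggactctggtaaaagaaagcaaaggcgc
Slfn4 (chr11:83175016-83175185, plus strand): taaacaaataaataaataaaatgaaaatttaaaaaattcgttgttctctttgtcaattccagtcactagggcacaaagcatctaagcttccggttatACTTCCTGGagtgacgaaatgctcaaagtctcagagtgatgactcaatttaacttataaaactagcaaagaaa
Slfn5 (chr11:82951932-82952101, plus strand): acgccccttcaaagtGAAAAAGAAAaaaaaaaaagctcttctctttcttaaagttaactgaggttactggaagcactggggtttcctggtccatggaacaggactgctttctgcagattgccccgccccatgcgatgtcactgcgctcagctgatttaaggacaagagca
Slfn8 (chr11:83020811-83020980, minus strand): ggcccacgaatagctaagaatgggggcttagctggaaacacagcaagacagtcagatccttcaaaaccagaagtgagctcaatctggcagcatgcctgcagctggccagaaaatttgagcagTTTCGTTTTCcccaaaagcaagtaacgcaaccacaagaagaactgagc
Slfn9 (chr11:82991831-82992000, minus strand): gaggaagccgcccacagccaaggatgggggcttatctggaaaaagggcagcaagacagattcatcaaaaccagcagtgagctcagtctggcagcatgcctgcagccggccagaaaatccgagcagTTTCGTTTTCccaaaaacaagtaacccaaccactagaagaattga

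The ISRE core was searched as GAAA, any 2 bases and GAAA on both strands, in windows from 250 bases before to 50 after each start site. It was found in Slfn5 at −155 to −146 and, on the opposite strand, in Slfn8 at −48 to −39 and in Slfn9 at −45 to −36. No exact match was found in the windows of Slfn1, Slfn2, Slfn3 and Slfn4, and near matches were not searched. Of 32851 RefSeq windows of this length, 3.44% held the ISRE core. The core of the gamma-activated site, TTCNNNGAA, was in 8.30% of all windows and in 0 of the 7 members. The upstream sequences of Slfn8 and Slfn9 were close copies, with 144 identical bases of 159 aligned. The run ACTTCCTGG, which was picked after the sequences were seen, began at −74 in Slfn1, −55 in Slfn2, −42 in Slfn3 and −73 in Slfn4 and was in 0.843% of all windows. In Slfn1, Slfn2 and Slfn4, but not in Slfn3, it continued as ACTTCCTGGAG, which was in 0.0731% of all windows. The longer form was picked by leaving out Slfn3, so nothing can be read from its match with the levels.

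The short members were compared first. Slfn2, the quiescence factor that also protects transfer RNAs from cleavage in activated T cells, had 21.5 and 11.1 CPM in Vehicle-1 and Vehicle-2 and 309.9 and 109.5 CPM in TAK-931-1 and TAK-931-2. Both TAK-931-treated libraries were above both vehicle-treated ones, and the groups did not overlap. Its fitted log2 fold change was 3.69 (SE 0.70, n = 2 per group). Slfn1, whose forced expression is known to arrest thymocyte growth, had 4.27 and 2.28 CPM in Vehicle-1 and Vehicle-2 and 51.8 and 20.1 CPM in TAK-931-1 and TAK-931-2. Its order of libraries was that of Slfn2. The fitted log2 fold change of Slfn1 was 3.45 (SE 0.67).

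The intermediate members differed from each other. Slfn4, a gene of interferon-stimulated macrophages and other myeloid cells, had 2.73 and 3.18 CPM in the vehicle pair (Vehicle-1 first), and TAK-931-1 and TAK-931-2 had 54.3 and 14.6 CPM. The vehicle-treated libraries lay close together and below both others. Its fitted log2 fold change was 3.54 (SE 0.77). Slfn3, which has been studied in the intestinal epithelium and in T cells, had 13.6 and 13.1 CPM in Vehicle-1 and Vehicle-2. Its level was 8.17 CPM in TAK-931-1, while TAK-931-2 had 12.7 CPM. TAK-931-1 was the lowest library and the other three were nearly level, so the groups were separated by a narrow gap. The fitted log2 fold change of Slfn3 was −0.35 (SE 0.41), smaller than its error, with an adjusted p of 0.614 by edgeR's quasi-likelihood test.

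The long members had the direction of Slfn1, Slfn2 and Slfn4. Slfn5, an interferon-induced nuclear protein, had 14.1 and 18.6 CPM in Vehicle-1 and Vehicle-2 and 210.1 and 67.4 CPM in TAK-931-1 and TAK-931-2. Its groups did not overlap, and its fitted log2 fold change was 3.09 (SE 0.64). Slfn8, one of the mouse genes most like human SLFN11, had 5.04 and 1.80 CPM in Vehicle-1 and Vehicle-2 and 67.1 and 21.4 CPM in TAK-931-1 and TAK-931-2. The fitted log2 fold change of Slfn8 was 3.69 (SE 0.86), and its vehicle-treated libraries were the most unequal of the family. Slfn9, its close paralog, had 2.49 and 1.44 CPM in Vehicle-1 and Vehicle-2 and 17.8 and 7.93 CPM in TAK-931-1 and TAK-931-2. Its fitted log2 fold change was 2.70 (SE 0.67), the lowest of the 6 members that were higher.

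**Figure D1:**
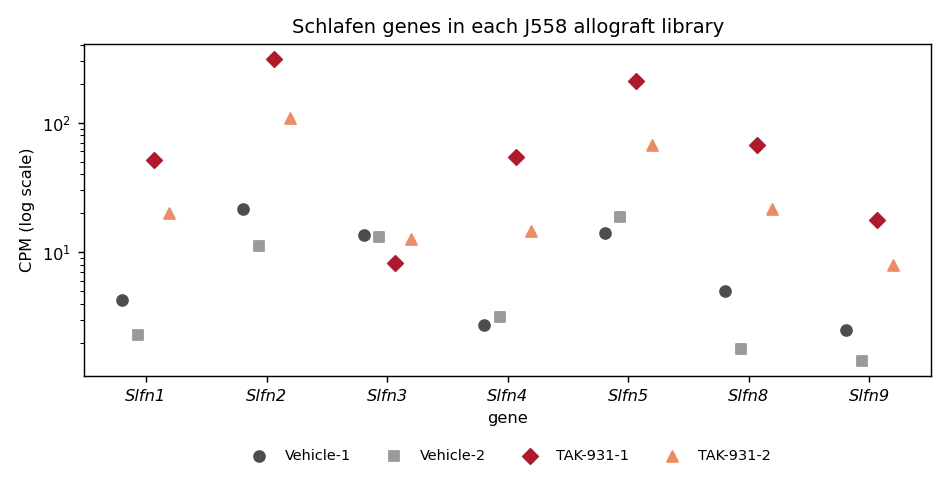
CPM of the 7 Schlafen genes in each library, on a log axis; each point is 1 tumour, with Vehicle-1 and Vehicle-2 in greys and TAK-931-1 and TAK-931-2 in reds. For 6 genes both TAK-931 points lie above both vehicle points, with TAK-931-1 highest, whereas Slfn3 lies between 8.17 and 13.6 CPM in all 4 libraries.

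No member passed an adjusted p of 0.05 over all genes by edgeR's quasi-likelihood test with Benjamini-Hochberg adjustment, and neither did any other of the 13669 genes tested (0% called). The adjusted p by edgeR was 0.275 for each of the 6 members with higher levels. At an unadjusted p under 0.05, 6 of 7 members were higher in the TAK-931-treated tumours (from 0.00488 for Slfn2 to 0.0132 for Slfn9 by edgeR's quasi-likelihood test), against 11.6% of all genes tested, and 0 members were lower, against 6.55% of all genes. The 6 members were also higher without overlap between the groups, as were 30.0% of all genes, and Slfn3 was lower without overlap, as were 32.7%. An exact permutation test of 2 libraries against 2 cannot go below a p of 0.333. The median fitted log2 fold change was 3.45 over the 7 members and 0.02 over all genes tested.

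The calls differed between tests. DESeq2 called 6 members, with adjusted p from 2.04e-06 to 0.00331 and 9.78% of all genes called higher, whereas limma-voom called 0 and had 5 members higher at an unadjusted p under 0.05, against 5.72% of all genes. With the replicate number of the labels as a block, edgeR called Slfn1, Slfn2 and Slfn8, against 1.03% of all genes called higher. Without TAK-931-1, edgeR called 5 members higher (all of the 6 but Slfn2, whose adjusted p was 0.0818), against 12.6% of all genes. Without TAK-931-2 it called all of the 6, against 28.2% of all genes. In both of these fits the lone TAK-931-treated library was assumed to vary as the vehicle pair did. Without Vehicle-1, edgeR called 0 members and 0 genes, with 6 members and 1003 of all genes tested at an unadjusted p under 0.05. Without Vehicle-2 it also called 0 members and 0 genes, with 5 members and 1019 genes at that threshold, and in these fits the lone vehicle-treated library was assumed to vary as the TAK-931 pair did.

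TAK-931-1 contributed most to the size of the differences. Without TAK-931-1, the fitted log2 fold changes of the 6 members were between 2.01 for Slfn9 and 2.75 for Slfn2. Without TAK-931-2 they were between 3.15 for Slfn9 and 4.27 for Slfn8. The vehicle-treated libraries mattered most for Slfn8, whose log2 fold change was 4.61 without Vehicle-1 and 3.10 without Vehicle-2. Slfn3 was below 0 in these 4 fits, from −0.73 (TAK-931-2 left out) to −0.07 (TAK-931-1 left out).

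**Figure D2:**
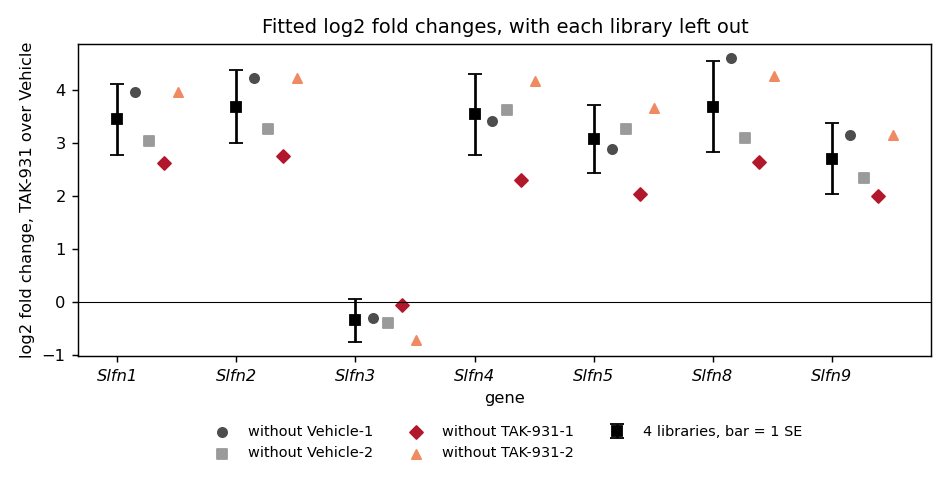
Fitted log2 fold change of TAK-931 over vehicle for each Schlafen gene; black squares are the fit on 4 libraries with bars of 1 SE, and the coloured points leave out 1 library each. Leaving out TAK-931-1 gives the lowest value for each of the 6 members with higher levels, between 2.01 and 2.75, and Slfn3 stays between −0.73 and −0.07.

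The members were then ranked by level per length, as CPM per kilobase of the deposited exon length. In Vehicle-1, Slfn2 was highest with 12.9 CPM per kb, followed by Slfn3 with 7.48, Slfn5 with 2.36 and Slfn1 with 2.30. In Vehicle-2, Slfn3 (7.20) and Slfn2 (6.66) were in the reverse order. The vehicle-treated libraries thus placed Slfn2 and Slfn3 at the top, with no fixed order between them. In TAK-931-1, Slfn2 (186.2 CPM per kb) stood above Slfn5 (35.1), Slfn1 (27.9), Slfn8 (16.7) and Slfn4 (13.7), and Slfn3 was lowest at 4.50, next to Slfn9 at 4.60. In TAK-931-2, Slfn2 (65.8) was again first, and Slfn3 (7.0) ranked between Slfn1 (10.8) and Slfn8 (5.34). Slfn9 was the lowest of the 7 in both vehicle-treated libraries and in TAK-931-2, at 0.646, 0.373 and 2.06 CPM per kb. The summed level of the family was 63.7 and 51.4 CPM in Vehicle-1 and Vehicle-2 and 719.1 and 253.7 CPM in TAK-931-1 and TAK-931-2.

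The balance within pairs of close paralogs was read inside each library, where depth and scaling cancel. Slfn3 took 83.3% of the counts of Slfn3 and Slfn4 in Vehicle-1 (exact 95% binomial interval 78.3% to 87.5%) and 80.4% in Vehicle-2 (75.2% to 85.0%). TAK-931-1 had a share of 13.1% (11.2% to 15.1%), and TAK-931-2 one of 46.6% (42.0% to 51.2%). The intervals of both TAK-931-treated libraries lay below those of the vehicle-treated libraries and apart from each other. In contrast, Slfn1 took 16.6%, 17.0%, 14.3% and 15.5% of the counts of Slfn1 and Slfn2 in Vehicle-1, Vehicle-2, TAK-931-1 and TAK-931-2. All 4 values lay inside the counting interval of Vehicle-2, 12.3% to 22.6%. Slfn8 took 66.9%, 55.6%, 79.1% and 73.0% of the counts of Slfn8 and Slfn9 in the same order, and the interval of Vehicle-1 (58.0% to 75.0%) overlapped that of TAK-931-2 (68.9% to 76.8%). These intervals cover counting error only and, since both mates of a read pair appear to be counted, they are too narrow.

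**Figure D3:**
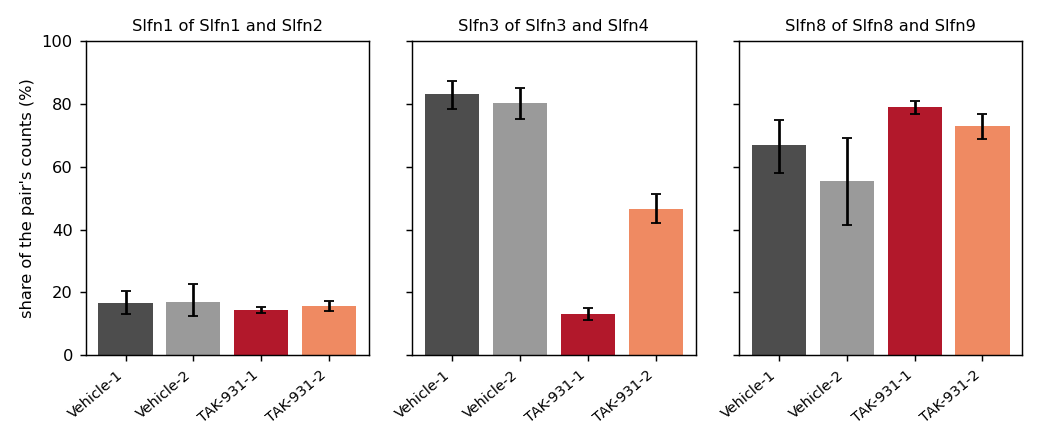
Share of the counts of each paralog pair taken by 1 member (percent, axis from 0 to 100) in the 4 libraries, with exact 95% binomial intervals as bars. The share of Slfn3 is 83.3% and 80.4% in the vehicle libraries and 13.1% and 46.6% in the TAK-931 libraries, whereas the share of Slfn1 lies between 14.3% and 17.0% throughout.

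Reads shared by paralogs bear on these values. Of the 100-base stretches of each member's transcripts, 0% to 3.71% were also found in another Schlafen gene, and Slfn8 (3.38%) and Slfn9 (3.71%) shared most, with the pseudogene Slfn10-ps. Of 50-base stretches, the share was 0% for Slfn5, 7.39% for Slfn3, 8.15% for Slfn4 and 14.6% for Slfn8. Slfn8 and Slfn9 are therefore the least certain of the 7, and Slfn5 the most. The antisense gene Slfn5os overlaps Slfn5 by 77 bases and had 0 counts in every library. Slfn14 and Slfnl1 also had 0 counts in all 4 libraries, which allows up to 3 counts or 0.158 to 0.180 CPM. Slfn10-ps had 20, 14, 166 and 66 counts in Vehicle-1, Vehicle-2, TAK-931-1 and TAK-931-2, with a fitted log2 fold change of 2.63 (SE 0.71).

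Each group's 2 libraries were compared with each other, a comparison that holds no treatment. TAK-931-1 exceeded TAK-931-2 by 2.24-fold for Slfn9, 2.57-fold for Slfn1, 2.83-fold for Slfn2, 3.12-fold for Slfn5, 3.13-fold for Slfn8 and 3.72-fold for Slfn4. Slfn3 was lower in TAK-931-1, at 0.642-fold (95% counting interval on halved counts 0.470 to 0.862). Vehicle-1 exceeded Vehicle-2 by 1.94-fold for Slfn2 (1.51 to 2.53) and 2.80-fold for Slfn8 (1.50 to 5.38). Slfn5 was lower in Vehicle-1, at 0.760-fold (0.593 to 0.971), and the interval of Slfn4 (0.859-fold, 0.477 to 1.60) held 1. Between the vehicle-treated libraries, Slfn1, Slfn2 and Slfn8 were thus above 1 beyond counting error and Slfn5 below it. The intervals of Slfn3 (0.789 to 1.36) and Slfn9 (0.813 to 3.86) held 1. This pair differed beyond counting error over all genes too (chi-square per degree of freedom of 8.01), so such ratios are not particular to the members.

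**Figure D4:**
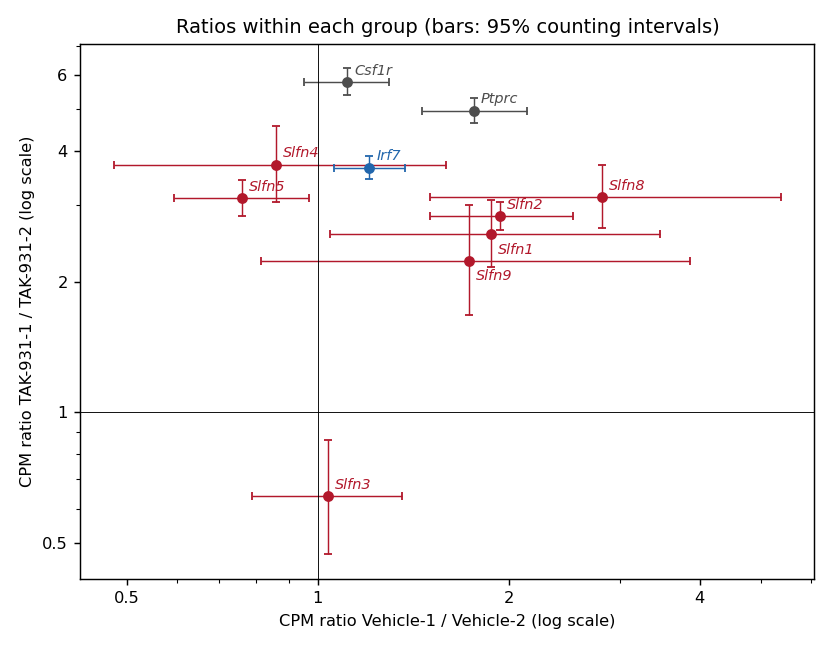
CPM ratio of Vehicle-1 to Vehicle-2 (horizontal) against that of TAK-931-1 over TAK-931-2 (vertical), both on log axes with 95% counting intervals on halved counts as bars; members are in red, the interferon pathway gene Irf7 in blue, and the leukocyte genes Ptprc and Csf1r in grey. Slfn3 alone of the members lies below 1 on the vertical axis (0.642), and Ptprc and Csf1r lie above all members, at 4.96 and 5.77. Over the 6 pan-leukocyte markers, of which only Ptprc is plotted, the median of this ratio is 3.09 and the lowest 1.61, so other leukocyte genes lie among or below the members.

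Markers of host cells moved with the members, and their part in these differences was not tested. In bulk RNA, more cells of a type and more RNA per cell cannot be told apart. Ptprc, the pan-leukocyte gene for CD45, had 36.6, 20.8, 632.8 and 127.6 CPM in Vehicle-1, Vehicle-2, TAK-931-1 and TAK-931-2. Csf1r, the receptor that marks monocytes and macrophages, had 42.5, 38.2, 587.6 and 101.8 CPM. Cd3e of the T cell receptor complex had 1.90, 0.360, 136.1 and 7.70 CPM. These 3 genes had the same highest and lowest libraries as Slfn1, Slfn2, Slfn8 and Slfn9. Neutrophil genes differed among themselves, since S100a8 had 4, 22, 100 and 0 counts, whereas Csf3r, the most abundant of that list, had 86, 72, 2177 and 258. Trap1a, a J558 tumour antigen, had 1127, 1095, 355.5 and 1235 CPM and, like Slfn3, was lowest in TAK-931-1. Cdc7, the target of TAK-931, had 23.0, 21.5, 21.3 and 21.2 CPM, with a log2 fold change of −0.06 (SE 0.26).

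Whole marker lists were read beside these genes. All 6 pan-leukocyte markers were higher without overlap between the groups, against 30.0% of all genes tested, with summed levels of 744, 687.5, 3489 and 1166 CPM in Vehicle-1, Vehicle-2, TAK-931-1 and TAK-931-2. Of 14 monocyte and macrophage markers, 14 were higher without overlap between the groups, with a summed level of 723 and 594 CPM in the vehicle-treated and 10128 and 1860 CPM in the TAK-931-treated libraries. Of 14 T cell markers, 13 were higher, with sums of 123, 121, 2096 and 259.8 CPM in Vehicle-1, Vehicle-2, TAK-931-1 and TAK-931-2. Most of the sum in each vehicle-treated library came from Thy1 (38.1 and 54.9 CPM) and Cd28 (37.5 and 38.2 CPM). Thy1 is also on the fibroblast list. Of 8 NK cell markers, 7 were higher, with sums of 55.7, 26.9, 725 and 128 CPM. The T cell markers had TAK-931-1 at a median of 8.49 times TAK-931-2, against 5.50 for monocyte and macrophage markers, 4.37 for NK cell markers and 2.83 for the 7 members. Among the remaining lists, 7 of 8 dendritic cell, 6 of 7 fibroblast and 3 of 7 endothelial markers were higher without overlap, and so were 1 of 5 neutrophil, 1 of 5 B cell, 1 of 10 J558 and plasma cell and 0 of 8 skeletal muscle markers.

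The members were also expressed relative to leukocyte genes in the same library, as a description with no test. Relative to Ptprc, Slfn2 was 0.586 and 0.533 in Vehicle-1 and Vehicle-2 and 0.490 and 0.858 in TAK-931-1 and TAK-931-2, so the groups overlapped. The groups also overlapped for Slfn1, Slfn4, Slfn5 and Slfn8, while Slfn9 and Slfn3 were lower in both TAK-931-treated libraries. Slfn3 had 0.371 and 0.628 per unit of Ptprc in the vehicle-treated libraries, whereas TAK-931-1 and TAK-931-2 had 0.0129 and 0.0997. Another reference gave another picture. Relative to the mean log2 level of 6 pan-leukocyte markers (Ptprc, Laptm5, Coro1a, Cd53, Cd52 and Vav1), the 6 members other than Slfn3 were higher without overlap, by a ratio of group means between 2.02 for Slfn9 and 3.77 for Slfn2. Slfn3 stayed lower, at a ratio of 0.319. The references themselves differed, since Coro1a had 225.3, 230.2, 714.4 and 238.3 CPM in Vehicle-1, Vehicle-2, TAK-931-1 and TAK-931-2, a much smaller range than that of Ptprc. Cd53 (160.4, 156.4, 415.6 and 237.2 CPM) and Vav1 (109.9, 98.5, 197.1 and 122.7 CPM) also had smaller ranges. Of the 6 markers, Ptprc had the widest range. J558 cells are themselves of the leukocyte lineage, and the part of tumour cells in these marker levels was not tested. The higher ratios therefore cannot be read as a rise beyond that of host leukocytes. Of the 7 members, Slfn3 alone was lower in both TAK-931-treated libraries with each of the references. That outcome was fixed in advance, since Slfn3 itself was not higher in these libraries and all 6 markers were.

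**Figure D5:**
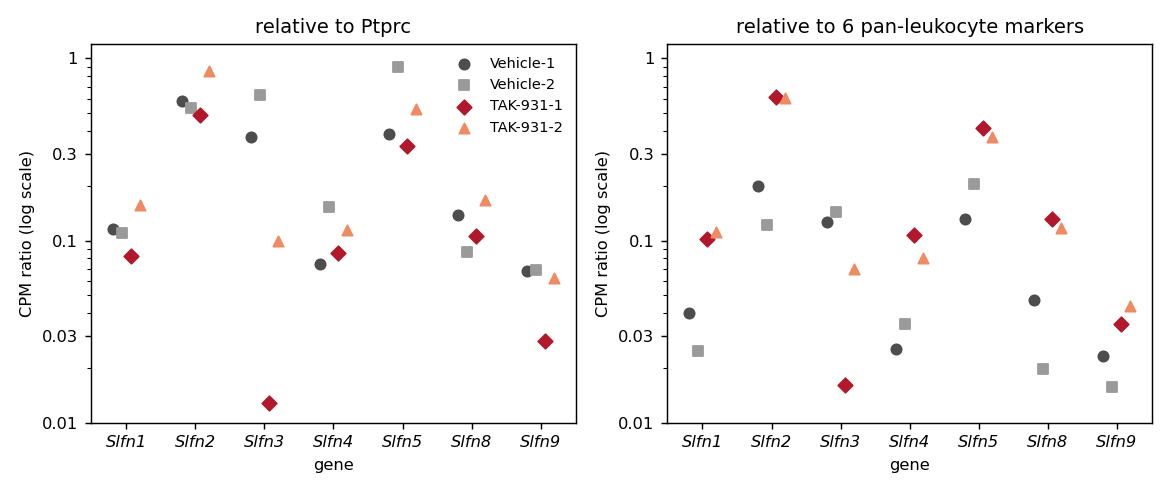
CPM of each Schlafen gene divided by CPM of Ptprc (left) and by the mean level of 6 pan-leukocyte markers (right) in the same library, on log axes; each point is 1 tumour. On the left the groups overlap for 5 genes, and on the right 6 genes are higher in both TAK-931 libraries, while Slfn3 is lower in both panels.

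Interferon genes were examined because interferons are known inducers of Schlafen genes. Of 38 classical interferon-stimulated genes tested, 31 were higher at an unadjusted p under 0.05 by edgeR (11.6% of all genes) and 35 were higher without overlap (30.0% of all genes), with a median log2 fold change of 2.65. Samhd1, a nucleotide-hydrolysing restriction factor, had 200.7, 174.1, 442.5 and 268.3 CPM in Vehicle-1, Vehicle-2, TAK-931-1 and TAK-931-2. Lgals3bp, a secreted glycoprotein, had 72.0, 47.2, 733.5 and 186.9 CPM, and Bst2, the antiviral protein tetherin, had 110.4, 98.8, 347.3 and 151.2 CPM. These 3 were the genes of the list with the highest mean CPM, and each had its highest level in TAK-931-1. TAK-931-1 had a median of 2.46 times the level of TAK-931-2 over the list, beside 2.83 for the Schlafen members, 3.09 for the pan-leukocyte markers and 2.40 for the dendritic cell markers. Vehicle-1 exceeded Vehicle-2 in 34 of the 38 genes, with a median ratio of 1.45, against 6674 of all 13669 genes tested. It did so in 5 of the 7 Schlafen members too, with a median ratio of 1.68, while Slfn4 and Slfn5 had ratios below 1.

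Of 19 interferon signalling and IRF genes, 11 were higher at an unadjusted p under 0.05 by edgeR and 0 were lower, against 11.6% and 6.55% of all genes. Irf7, a regulator of interferon alpha genes, had 62.5, 51.8, 569.2 and 155.3 CPM in Vehicle-1, Vehicle-2, TAK-931-1 and TAK-931-2. Ptpn6, a phosphatase of haematopoietic cells, had 276.7, 290.7, 449.0 and 445.8 CPM, with nearly equal levels in the TAK-931-treated libraries. Among the inducing cytokines, Ifng had 32, 2, 516 and 112 counts, with a fitted log2 fold change of 4.05 (SE 1.46). Ifnb1 was counted 6 times in Vehicle-1 and had 0 counts elsewhere, Ifna2 had 1 count, in TAK-931-2, and Ifna4 had 0 in every library. The part of any of these cytokines in the levels of the Schlafen members was not tested.

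Lists tied to Schlafen functions were read in the same way. Of 16 lymphocyte quiescence factors, 5 were higher (31.3%) and 1 was lower at an unadjusted p under 0.05 by edgeR, against 11.6% and 6.55% of all genes, with a median log2 fold change of 0.14. The higher ones included Btg1, and also Il7r, Tcf7 and Lef1, which are genes of naive and memory lymphocytes. The lower gene was Tsc22d3, a glucocorticoid-induced regulator, with 157.4, 181.3, 74.5 and 75.8 CPM in Vehicle-1, Vehicle-2, TAK-931-1 and TAK-931-2. Btg2, a brake on proliferation, had 720.8, 804.4, 418.3 and 1076 CPM, with a fitted log2 fold change of −0.03.

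Of 15 genes listed under tRNA cleavage and stress of translation, 2 were higher (13.3%) and 2 were lower (13.3%) at an unadjusted p under 0.05 by edgeR, against 11.6% and 6.55% of all genes. The lower ones were Atf4, the effector of the integrated stress response, with 644.3, 593.3, 193.5 and 314.1 CPM in Vehicle-1, Vehicle-2, TAK-931-1 and TAK-931-2, and Rnh1, the inhibitor of the tRNA-cleaving angiogenin, with 366.2, 384.7, 218.1 and 252.2 CPM. The higher ones were Samd9l, itself interferon-induced, with a log2 fold change of 3.49, and Dnmt3a with 1.32. Dnmt3a encodes a DNA methyltransferase, so its level does not bear on tRNA cleavage. Ppp1r15b, a phosphatase subunit that reverses this stress response, had 393.9, 412.2, 272.7 and 425.9 CPM. Of 17 replication fork and stress partners of human SLFN11, 0 were higher and 1, Rpa3, was lower at an unadjusted p under 0.05, which is near the share over all genes (6.55% lower), with a median log2 fold change of −0.31. Without overlap between the groups, 9 of the 17 were lower and 1 was higher, against 32.7% and 30.0% of all genes. Ddb1 had 408.5, 442.5, 328.5 and 473.4 CPM, Mcm3 had 336.5, 343.3, 220.9 and 287.7 CPM, and the helicase gene Dhx9 had 256.0, 232.9, 156.3 and 184.7 CPM in the same order of libraries. Ddb1 encodes an adaptor of a ubiquitin ligase that acts on forks, Mcm3 a subunit of the replicative helicase. Mcm3 and Dhx9 were lower with TAK-931 without overlap between the groups, while the groups overlapped for Ddb1.

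Finally, the genes whose profile over the 4 libraries was most like each member's were listed, by the Euclidean distance of centred log2 levels among about 9620 genes with a mean log2 CPM over 3. With 4 libraries, this likeness is a description only. Slfn1 and Slfn2 were nearest to each other (distance 0.269 in log2 units), with C3 next for both, followed by Nod1 for Slfn1 and Fgl2 for Slfn2. Slfn8 was nearest to Fgl2 (0.0348), then to Oasl2 and Slfn2. Slfn4 was nearest to Pltp (0.194), Sh3pxd2b and Trio. Slfn5 was nearest to Bhlhe40 (0.105), Rin3 and Pltp, a gene it shared with Slfn4. Slfn9 was nearest to Parp14 (0.130), Enc1 and Irgm1. The 6 members lay between 0.269 and 1.48 from one another, and Slfn3 lay between 3.25 and 4.40 from each of them. Slfn3 was nearest to C87436 (0.0362), Nrd1 and Rpa1. Rpa1, a subunit of the single-stranded DNA binding complex, had 235.5, 224.3, 142.8 and 226.2 CPM in Vehicle-1, Vehicle-2, TAK-931-1 and TAK-931-2, lowest in TAK-931-1 as Slfn3 was.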

How the data were processed

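RNA was extracted from J558 allografts and sequenced in 4 libraries (2 per group, grouped by their titles). The authors deposited 1 table per library of raw counts per gene. The submitters' processing notes name STAR 2.6.1c, featureCounts and the build mm10, and the strand setting is not given in the sources used here. Another deposited column, of another kind, holds the summed exon length in bases. Odd values made up 17.9% to 23.9% of the counts up to 20, so both mates of a pair appear to be counted. Floors of 3 counts and intervals cover counting error only.

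Genes were kept by filterByExpr (minimum count of 10) and scaled by TMM, leaving 13669 of 24421 genes. Groups were compared by edgeR 4.0.16's robust quasi-likelihood test (R 4.3.3), two-sided, with Benjamini-Hochberg adjustment over all genes at 0.05. The test was checked on simulated counts. The libraries within a group differed beyond sampling noise (chi-square per degree of freedom of 8.01 and 284). Replicates are separate tumours by title, and where animals shared conditions the p-values measure only the spread between these libraries. Alternatives were DESeq2 1.42.0, limma-voom (limma 3.58.1), other size factors, filters of no or at least 10 counts, no robust estimation, halved counts, a replicate block, summed paralogs, another leukocyte reference, a prior count of 0.5 and each library left out.

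The members and gene lists were chosen with earlier results of these data known. All members were named, with the 3 most alike genes of each, the 3 genes of highest mean CPM of each pathway list (some are not reported here), and Ptprc, Cd3e, Csf1r, S100a8, Trap1a and Cdc7. Other genes named (Slfn10-ps, Slfn14, Slfnl1, Slfn5os, Pax5, Cd79b, Csf3r, Coro1a, Cd53, Vav1, Thy1, Cd28, the inducing cytokines, and quiescence, tRNA and fork genes at an unadjusted p under 0.05) were picked after their values were seen. Promoter windows came from RefSeq (GRCm38.p6) and matched all 7 members.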

Additional observations from a re-analysis of the deposited data

How the results depend on the processing

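By edgeR, 0 genes and 0 members passed an adjusted p of 0.05 with other size factors, library size only, no filter, at least 10 counts in every library, no robust estimation or halved counts, and the same held for limma-voom. Counts at an unadjusted p under 0.05 were 2475 genes in edgeR and 1860 in limma-voom. DESeq2 called 1411 genes and 6 members, and the replicate block called 144 genes and 3 members (adjusted p from 0.0301 to 0.0381). Around the group means, libraries with the same number deviated with a correlation of 0.00409 over all genes tested, and the block changed no other member call. One value over all genes cannot exclude a shared deviation in some of them. Of the 38 classical interferon-stimulated genes, 34 were higher in Vehicle-1 than in Vehicle-2 and 36 were higher in TAK-931-1 than in TAK-931-2. Over all 13669 genes these counts were 6674 and 6886. With 1 library left out, the count of genes called ranged from 0 to 8424 (3996 without TAK-931-1 and 8424 without TAK-931-2), and the count of members from 0 to 6. The cause of these differences was not tested. The number of members at an unadjusted p under 0.05 was 5 in limma-voom and 6 in the other alternatives on 4 libraries. Without TAK-931-2, Slfn3 differed in the opposite direction from the 6 other members, with a log2 fold change of −0.73. The count of 6 members higher without overlap was also 6 with other size factors and with library size only, while another test or leaving out a library cannot lower it. When Slfn3 and Slfn4 were summed to 1 row, the log2 fold change of that row was 1.46. It was −0.35 for Slfn3 alone and 3.54 for Slfn4 alone, since the row held the counts of both. With no filter, the median log2 fold change of all genes was 0.12, against 0.02. With a prior count of 0.5, 5 members kept all of their 3 most alike genes, and Slfn3 and Slfn8 kept 2. Depth limits Slfn9 and Slfn8 most, with as few as 24 and 30 counts in Vehicle-2.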
